A study of Mus musculus with 3 samples.

Results

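The 8 receptors and enzymes by which microglia sense extracellular nucleotides, adenosine and a lysophospholipid were described: P2ry12, P2ry13, P2ry6, Gpr34, Adora3, P2rx4, P2rx7 and Entpd1. They were taken by symbol, and all 8 were present among the 27998 genes of the count matrix. The cells came from brains, without the cerebellum, of C57BL6J female mice aged 5 months, and were sorted on Cd11b, a surface integrin of microglia and other myeloid cells. The labels name 3 groups with 1 library each. Ctrl was 1 untreated animal. D0 pooled 2 animals that had eaten PLX5622 chow (1200 mg/kg) for 14 days, which inhibits the receptor Csf1r on which microglia depend for survival. D2 was 1 animal that had eaten the same chow for 14 days and then control chow for 2 days. Single-cell libraries were made with 10x Genomics 3′ v2 reagents. The protocol in the labels mentions 4 samples handled side by side, and 3 were analysed here.

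Damaged and active cells release ATP, ADP, UTP and UDP, and microglia read these nucleotides through G protein-coupled P2Y receptors and ion channels of the P2X family. P2Y12 and P2Y13 bind ADP and couple to Gi proteins, and P2Y12 steers the microglial processes towards a site of injury. P2Y6 binds UDP and is linked to phagocytosis, and P2X4 and P2X7 are cation channels opened by ATP. GPR34 is a receptor of lysophosphatidylserine, the A3 receptor encoded by Adora3 binds adenosine, and Entpd1 encodes CD39, an enzyme of the cell surface that breaks ATP and ADP down to AMP.

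The barcodes of the matrix ended in the numbers 1 to 3, and no label or file used here links a number to a group. They are called libraries 1, 2 and 3 and were put in no group, and no test across animals or p-value was computed. Libraries 1, 2 and 3 held 1263, 599 and 287 cells with 6410990, 4022293 and 2831118 unique molecular identifiers (UMIs), shared 0 barcodes, and had median depths of 3662, 6188 and 8172 UMIs per cell. After filtering, 2135 cells fell into 12 clusters, which were formed without the 8 genes and named from marker lists that hold none of them. Microglia-like cells were 1084 cells in library 1, 63 in library 2 and 2 in library 3, so a level in microglia-like cells of library 3 could not be given. All 10 microglia markers, among them Tmem119 and Sall1, had UMIs in the microglia-like cells of libraries 1 and 2, summing to 34050 and 22276 counts per 1000000 UMIs (CPM). Levels below are CPM of the UMIs summed over the cells of a class, with exact 95% Poisson intervals in brackets. Shares have exact Clopper-Pearson 95% intervals and ratios exact conditional binomial ones. These intervals reflect counting error alone, and say nothing of how animals vary.

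Pooled over the libraries, 6 of the 8 genes had their highest level in microglia-like cells, where 19.9% of 9620 genes with at least 50 UMIs did. P2rx4 and P2rx7, the ATP-gated channels, were highest in the cluster named border-associated-macrophage-like, as were 19% of all genes. By class and library, P2rx4 was highest in the microglia-like cells of library 2, with an interval that overlapped that of this cluster, and the P2ry6 levels of this cluster and of the microglia-like cells of library 1 did not differ beyond their intervals. In microglia-like cells of library 2, P2ry12 and P2ry13 were lower than in library 1 by 3.72-fold and 3.40-fold, while P2rx4 was 1.78-fold higher. Gpr34 was 1.90-fold lower, and the other 4 genes were 1.29-fold to 1.84-fold lower.

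P2ry12 (ENSMUSG00000036353, GRCm38 chromosome 3, 59216272 to 59262871, minus strand) is the ADP receptor most used to tell microglia from blood-derived macrophages. In microglia-like cells it stood at 4927 CPM (4865 to 4990) in library 1, from 24095 UMIs, and at 1325 CPM (1197 to 1462) in library 2, from 394 UMIs. The intervals were far apart. Among single cells it was detected in 1082 of 1084 cells of library 1, the highest with 93 UMIs, and in 60 of 63 cells of library 2, the highest with 29 UMIs. In library 3, 1 of the 2 microglia-like cells held all 7 P2ry12 UMIs. The order of levels ran from the microglia-like cells of library 1 through the border-associated-macrophage-like and monocyte-like cells of that library. Then came the microglia-like cells of library 2 and the dendritic-like cells of library 1, with no overlap between the intervals of neighbours. These intervals leave out variation between cells. In library 1, the highest of 22 monocyte-like cells held 56 of 313 UMIs and the highest of 43 dendritic-like cells 42 of 200.

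Outside the microglia-like clusters, P2ry12 was highest in library 1. It had 2353 CPM in the 82 border-associated-macrophage-like cells, 1783 CPM in 22 monocyte-like cells and 528 CPM (457 to 606) in 43 dendritic-like cells of that library. The same monocyte-like class stood in libraries 2 and 3 at 83.9 CPM (68.9 to 101) and 88.2 CPM (74.8 to 103), and the dendritic-like class at 24.2 CPM (16.8 to 33.9) and 2.05 CPM, the last from 1 UMI. In the monocyte-like and dendritic-like classes the summed microglia markers were likewise highest in library 1. From library 2 to library 3 they did not follow P2ry12. They were 19464 CPM in the border-associated-macrophage-like cells of library 1. In libraries 1, 2 and 3 they were 16299, 2049 and 3496 CPM in the monocyte-like cells and 4652, 901 and 927 CPM in the dendritic-like cells. In library 1, most P2ry12 UMIs of these classes lay in cells rich in microglia markers, defined as cells with at least 0.3% of their UMIs from those markers and more than from the markers of any other class. In the border-associated-macrophage-like cluster of library 1, 66 of the 82 cells were of this kind and held 1947 of 1969 P2ry12 UMIs, and the remaining 16 cells had 321 CPM (201 to 486). Among the dendritic-like cells of library 1, 15 of 43 were of this kind and held 193 of 200 UMIs. In the monocyte-like cluster led by Ifitm1, 6 of 14 cells of library 1 were of this kind and held 187 of 255 UMIs. The remaining 8 cells of that cluster had 1487 CPM (1155 to 1886). By this definition, remaining cells can also hold microglia markers, and the marker level of these 8 is not given here. The part of cells rich in microglia markers in the other values was not tested. In non-classical-monocyte-like cells P2ry12 had 0 UMIs in libraries 2 and 3, which allows up to 36.3 and 19.7 CPM at 3 counts. Natural-killer-like (NK-like) cells had 1 UMI in 79 cells of library 2 and 0 in 33 cells of library 3, and neutrophil-like cells had 4 UMIs, all in 1 cell, of library 2.

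P2ry13 (ENSMUSG00000036362, chromosome 3, 59207892 to 59210882, minus strand), the second ADP receptor, lies beside P2ry12. Both genes sit within Med12l, which runs on the other strand, in a block that also holds P2ry14 and Gpr171. Cell Ranger, named in the submitters' processing notes, by default counts reads on a gene's own strand, and the setting used is not given in the sources used here. In microglia-like cells P2ry13 had 801 CPM (776 to 827) from 3918 UMIs in library 1, against 235 CPM (183 to 297) from 70 UMIs in library 2. These intervals did not overlap. Border-associated-macrophage-like cells had 401 CPM (360 to 447) and monocyte-like cells 313, 20.8 and 21.2 CPM in libraries 1, 2 and 3. Dendritic-like cells had 95 CPM and 7.13 CPM in libraries 1 and 2 and 0 UMIs in library 3, and NK-like cells of libraries 2 and 3 and mature-dendritic-like cells of library 2 also had 0. The first 7 places in the order were those of P2ry12, but not all neighbours were apart. The monocyte-like cells of library 1 (236 to 408) overlapped with the border-associated-macrophage-like cells and with the microglia-like cells of library 2. The monocyte-like cells of libraries 3 and 2, in the last of these places, did not differ beyond their intervals either.

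The promoters of the neighbours P2ry12 and P2ry13, both lower in library 2, are shown with that of P2rx4, which was higher. Each sequence runs from 250 bases before to 50 bases after a transcription start of RefSeq on GRCm38.p6, 5′ to 3′ on the gene's own strand. Capitals mark GAGGAA, the core that the microglial factor PU.1 binds, read on both strands.
P2ry12, chr3:59262936-59263235, minus strand: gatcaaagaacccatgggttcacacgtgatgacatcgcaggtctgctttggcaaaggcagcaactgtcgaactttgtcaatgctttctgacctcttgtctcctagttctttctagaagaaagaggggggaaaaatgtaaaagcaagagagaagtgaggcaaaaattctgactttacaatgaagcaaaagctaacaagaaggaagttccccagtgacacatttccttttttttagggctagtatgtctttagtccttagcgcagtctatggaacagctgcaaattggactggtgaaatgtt
P2ry13, chr3:59210833-59211132, minus strand: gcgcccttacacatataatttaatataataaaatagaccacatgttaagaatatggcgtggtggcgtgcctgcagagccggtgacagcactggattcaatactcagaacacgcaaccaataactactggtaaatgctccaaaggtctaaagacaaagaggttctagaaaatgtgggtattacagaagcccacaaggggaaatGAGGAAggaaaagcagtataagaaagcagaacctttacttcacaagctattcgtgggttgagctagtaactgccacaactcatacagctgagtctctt
P2rx4, chr5:122707294-122707593, plus strand: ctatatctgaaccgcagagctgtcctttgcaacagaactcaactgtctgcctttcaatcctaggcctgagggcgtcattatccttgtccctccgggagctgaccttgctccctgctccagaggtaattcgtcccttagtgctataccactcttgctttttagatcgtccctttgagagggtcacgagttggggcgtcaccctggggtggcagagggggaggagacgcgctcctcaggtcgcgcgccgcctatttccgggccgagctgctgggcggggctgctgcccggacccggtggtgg
GAGGAA was found once among these, in P2ry13, 48 bases before the start. RefSeq entries matched 6 of the 8 genes. Adora3 held GAGGAA on the other strand 28 bases before its start and TGANTCA, a form of the AP-1 motif, 98 bases before it. TGANTCA also lay in 1 of the P2rx7 promoters, 249 bases before the start. GAGGAA also lay in each of the P2rx7 promoters and in 1 of the Entpd1 promoters. Of all 32851 promoters of this length, 28.3% held GAGGAA and 7.81% held TGANTCA on either strand, and the motifs did not overlap each other in these windows.

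Gpr34 (ENSMUSG00000040229, chromosome X, 13632089 to 13640858, plus strand) encodes the lysophosphatidylserine receptor and lies within Cask, which runs on the other strand. Its level in microglia-like cells was 2370 CPM (2327 to 2414) in library 1, against 1247 CPM (1124 to 1381) in library 2. It was detected in 1076 of 1084 cells and in 60 of 63 cells. The border-associated-macrophage-like cells of library 1 stood at 1248 CPM (1173 to 1326), level with the microglia-like cells of library 2. In the first of these, 1033 of 1044 UMIs lay in the 66 cells rich in microglia markers. Monocyte-like cells had 974, 90.8 and 119 CPM in libraries 1, 2 and 3, and dendritic-like cells 266, 34.2 and 34.9 CPM. Of the 17 UMIs in dendritic-like cells of library 3, 13 lay in 1 cell rich in microglia markers. In the order of levels, the monocyte-like cells of libraries 3 and 2 did not differ beyond their intervals, nor did the dendritic-like cells of libraries 3 and 2.

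NK-like cells, which are lymphoid, held Gpr34 UMIs in each library, in libraries 2 and 3 with few of P2ry12. In library 2 they held 17 Gpr34 UMIs in 15 of 79 cells, or 65.0 CPM (37.9 to 104), and in library 3 they held 9 UMIs in 8 of 33 cells, or 81.4 CPM (37.2 to 154). No cell had more than 2 of them. Neutrophil-like cells had 0 Gpr34 UMIs in libraries 2 and 3, which allows up to 17.8 and 28.7 CPM. Of the summed P2ry12 and Gpr34 UMIs, P2ry12 made up 51.5% (47.9 to 55.1) in the microglia-like cells of library 2, 5.56% (0.141 to 27.3) in its NK-like cells and 0 of 9 UMIs in the NK-like cells of library 3. The same share was 67.5% (67 to 68) in microglia-like cells of library 1 and 65.4%, 64.7% and 66.4% in its border-associated-macrophage-like, monocyte-like and dendritic-like cells, with intervals that overlapped that of the microglia-like cells. The NK-like cells of library 1 differed from those of libraries 2 and 3: 13 cells held 39 P2ry12 UMIs, in 3 cells, and 9 Gpr34 UMIs, a P2ry12 share of 81.2% (67.4 to 91.1).

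P2ry6 (ENSMUSG00000048779, chromosome 7, 100937630 to 100974649, minus strand), the UDP receptor gene, overlaps Gm44545 on the other strand and was found in monocyte-like and dendritic-like cells of every library. Microglia-like cells of libraries 1 and 2 stood at 396 CPM (379 to 414) and 306 CPM (246 to 376), and border-associated-macrophage-like cells had 395 CPM (354 to 441). Monocyte-like cells had 256, 73.9 and 110 CPM, and dendritic-like cells 129, 59.2 and 90.3 CPM, in libraries 1, 2 and 3. In the dendritic-like cells of library 3, P2ry6 had 44 UMIs in 24 of 51 cells where P2ry12 had 1. In the cycling monocyte-like cluster of library 3, which was led by cell cycle genes, the 70 cells not rich in microglia markers had 100 CPM (79.9 to 123) of P2ry6 and 47.7 CPM (34.2 to 64.6) of P2ry12. NK-like cells had 0 P2ry6 UMIs in libraries 2 and 3, and neutrophil-like cells had 2 and 1. Non-classical-monocyte-like cells had 36.3 and 32.8 CPM, from 3 and 5 UMIs. The microglia-like cells of library 1 and the border-associated-macrophage-like cells did not differ beyond their intervals, nor did the latter from the microglia-like cells of library 2.

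Adora3 (ENSMUSG00000000562, chromosome 3, 105870858 to 105908926, plus strand), the A3 adenosine receptor gene, shares its strand and part of its span with Tmigd3, so its counts are uncertain to that extent. Microglia-like cells of library 1 had 160 CPM (149 to 172), and those of library 2, where 33 UMIs lay in 23 cells, 111 CPM (76.4 to 156). The intervals overlapped slightly. Border-associated-macrophage-like cells had 80.1 CPM (62 to 102), all 67 UMIs in cells rich in microglia markers. Every other class stood at 68.4 CPM or less. Mature-dendritic-like, neutrophil-like and NK-like cells of libraries 2 and 3 had 0 UMIs wherever at least 20 cells were present.

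P2rx4 (ENSMUSG00000029470, chromosome 5, 122707544 to 122729738, plus strand) encodes the ATP-gated channel tied to microglial responses after nerve injury. Microglia-like cells of library 1 stood at 119 CPM (110 to 129) from 583 UMIs and those of library 2 at 212 CPM (163 to 271) from 63 UMIs. Here library 2 was the higher. Border-associated-macrophage-like cells of library 1 had 185 CPM (157 to 217), and the 16 of them not rich in microglia markers had 248 CPM (144 to 397). Monocyte-like cells had 74.1, 92.4 and 57.2 CPM and dendritic-like cells 71.2, 59.9 and 34.9 CPM in libraries 1, 2 and 3. The mature-dendritic-like cells of library 2, which held 1 UMI each of P2ry12, Gpr34 and Entpd1 in 54 cells, had 38 P2rx4 UMIs in 24 cells, or 90.4 CPM (64 to 124). NK-like cells had 4 UMIs in library 2 and 0 in library 3. The microglia-like cells of library 2 and the border-associated-macrophage-like cells did not differ beyond their intervals, and most lower neighbours in the order overlapped as well.

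P2rx7 (ENSMUSG00000029468, chromosome 5, 122643911 to 122691432, plus strand), the neighbour of P2rx4, holds the microRNA gene Mir8115 on its strand and encodes the ATP-gated channel upstream of the inflammasome. It was highest in border-associated-macrophage-like cells of library 1, at 153 CPM (128 to 182), against 67.9 CPM (60.8 to 75.6) in microglia-like cells of the same library. The 16 cells of that cluster not rich in microglia markers had 219 CPM (122 to 361). With the cells rich in microglia markers left out of that cluster, it still had the highest pooled level of both P2X genes. Microglia-like cells of library 2 had 37.0 CPM (18.5 to 66.2), from 11 UMIs. Monocyte-like cells had 51.3, 10.8 and 14.3 CPM and dendritic-like cells 15.8, 5.71 and 8.21 CPM. The mature-dendritic-like cells of library 2, in which P2rx4 was present, had 0 P2rx7 UMIs. The microglia-like cells of library 1 were below the border-associated-macrophage-like cells beyond both intervals, and overlapped with the monocyte-like cells of library 1 and the microglia-like cells of library 2.

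Entpd1 (ENSMUSG00000048120, chromosome 19, 40612366 to 40741602, plus strand) encodes CD39 and overlaps 3 minor annotated genes on its strand. It had 256 CPM (242 to 271) and 155 CPM (113 to 206) in microglia-like cells of libraries 1 and 2 and 214 CPM (184 to 248) in border-associated-macrophage-like cells. Neighbours among these 3 values overlapped in their intervals. Entpd1 was also found in classes where each of the P2Y receptors had 4 UMIs or fewer. In library 2, neutrophil-like cells had 65.3 CPM (32.6 to 117), 11 UMIs in 9 of 37 cells, and NK-like cells had 53.5 CPM (29.3 to 89.8), 14 UMIs in 13 of 79 cells. Monocyte-like cells had 108, 49.3 and 32.1 CPM and dendritic-like cells 44.9, 25.7 and 26.7 CPM in libraries 1, 2 and 3.

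**Figure D1:**
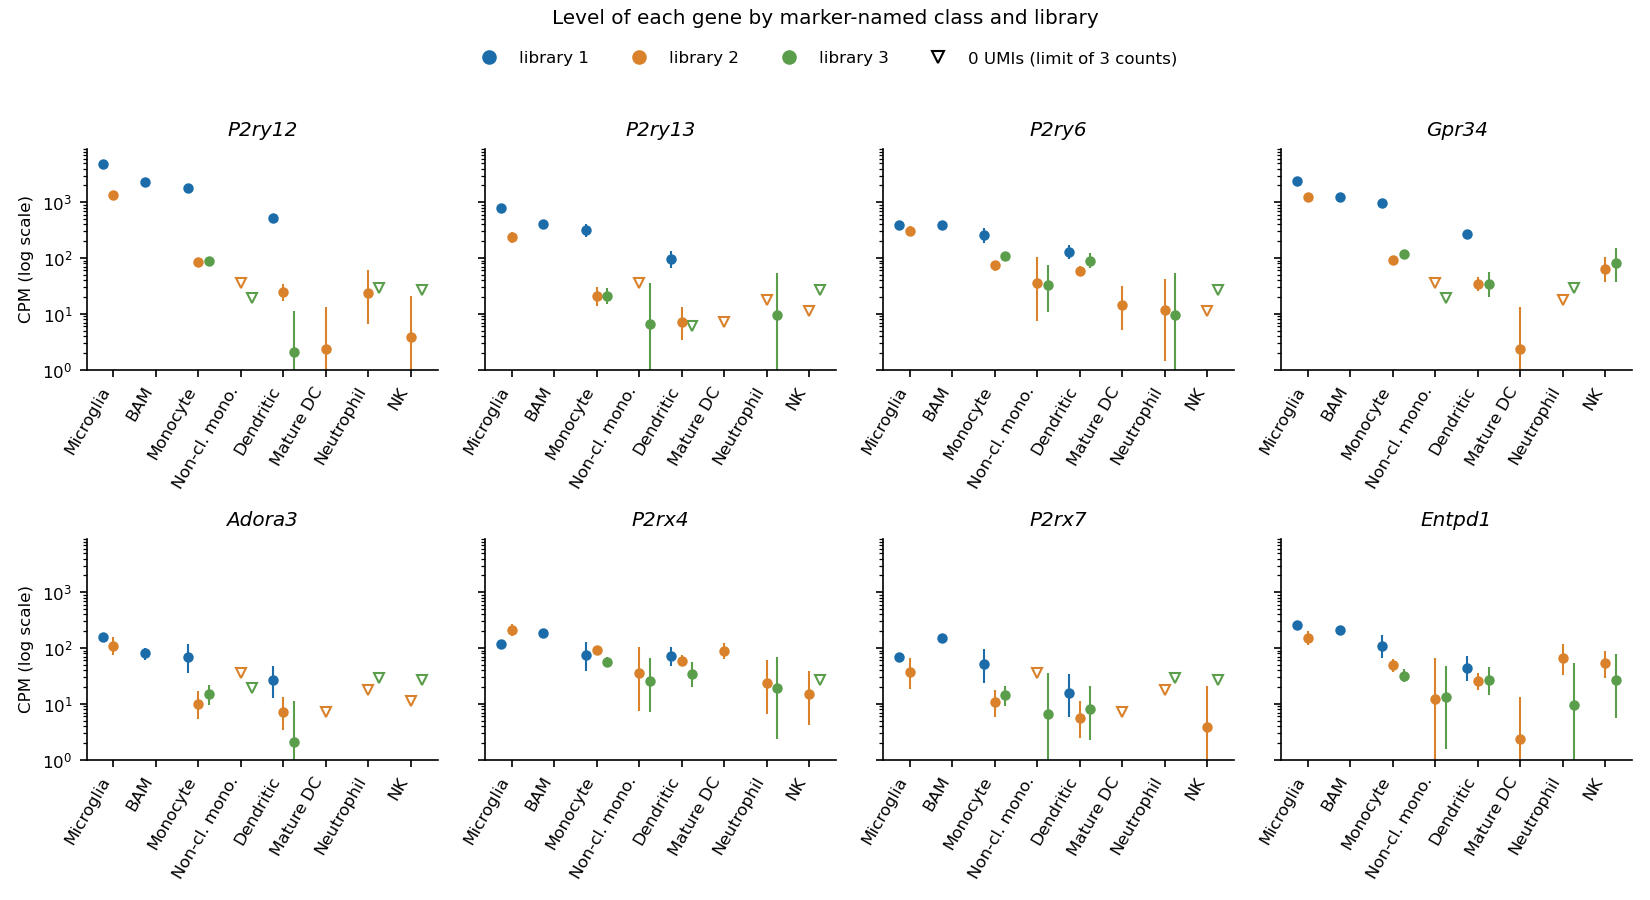
Level of each of the 8 genes (CPM, log axis) in each marker-named class, with 1 point per library of at least 20 cells, bars for 95% Poisson intervals and open triangles for the limit of 3 counts where 0 UMIs were found. P2ry12 falls from 4927 CPM in microglia-like cells of library 1 to 0 UMIs in non-classical-monocyte-like cells, while P2rx4 stays near or above 20 CPM in the myeloid classes. Border-associated-macrophage-like (BAM) and mature-dendritic-like (mature DC) cells have 1 library each.

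Microglia-like cells of libraries 1 and 2 were then set side by side. On the log2 scale, library 2 minus library 1, the median of 7235 genes with at least 50 UMIs was -0.37, and that of the 8 genes was -0.80. Lower levels in library 2 were found for 7 of the 8 genes and for 70.8% of all genes. By at least 2-fold, 2 of the 8 genes were lower, against 20.2% of all genes, or 9.02% of those with at least 500 UMIs. None was higher by that much, against 2.42% of all genes. By at least 1.5-fold, 5 were lower (P2ry12, P2ry13, Gpr34, P2rx7 and Entpd1), against 37.9%. The count past 2-fold was near the 20.2%. All members but P2rx7 had at least 500 UMIs, and against the 9.02% of such genes the count was higher.

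P2ry12 differed by -1.90 (-2.04 to -1.75) and P2ry13 by -1.77 (-2.13 to -1.43), both with whole intervals below the median of all genes. Gpr34, at -0.93 (-1.08 to -0.78), was also below it. P2ry6, at -0.37 (-0.69 to -0.07), stood at the median of all genes, and Adora3 at -0.53 (-1.08 to -0.03), Entpd1 at -0.73 (-1.19 to -0.30) and P2rx7 at -0.88 (-1.89 to -0.02) had intervals that held it. P2rx4 was the exception, at 0.83 (0.43 to 1.21), above both 0 and the median. A lower level in library 2 was not particular to the receptors. Each of the microglia naming markers but Trem2 was also lower there. Tmem119 had 3077 and 642 CPM and Slc2a5 575 and 108 CPM in libraries 1 and 2, while Trem2 had 2865 and 3534 CPM. Depth per microglia-like cell was alike, with medians of 3382 and 3734 UMIs, but the composition was not: neutrophil markers summed to 197 and 730 CPM and monocyte markers to 15.3 and 47.1 CPM in libraries 1 and 2. Their part in the differences was not tested.

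The differences were present within single clusters. In cluster 1, with 305 cells of library 1 and 34 of library 2 and median depths of 2831 and 3071 UMIs, P2ry12 had 6006 and 1985 CPM, P2ry13 1012 and 356 CPM and Gpr34 2828 and 1398 CPM. P2rx4 had 107 and 205 CPM there, a difference of 0.94 (0.22 to 1.61). P2rx7 had 58.1 and 62.3 CPM in cluster 1, so its lower level in library 2 was not seen there. In cluster 2, with 176 and 22 cells, P2ry12 had 3747 and 833 CPM, P2ry13 540 and 113 CPM, and P2rx4 139 and 194 CPM, the last a difference of 0.48 (-0.12 to 1.04) whose interval holds 0. Lower by at least 2-fold were 3 of the 8 genes in each cluster, P2ry12 and P2ry13 with Gpr34 in cluster 1 and with P2rx7 in cluster 2, where 15.5% and 18.4% of all genes were.

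**Figure D2:**
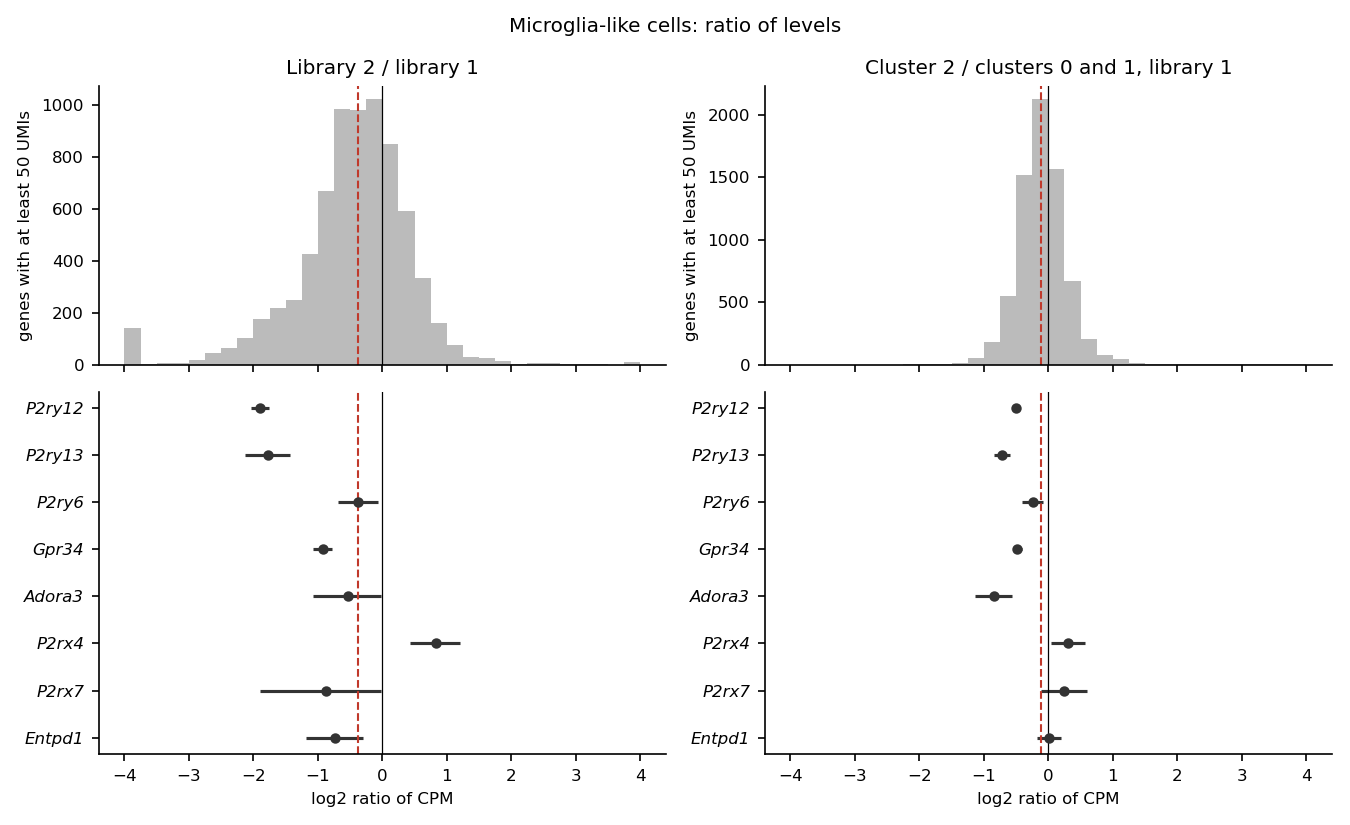
Log2 ratios of CPM in microglia-like cells, library 2 over library 1 (left) and cluster 2 over clusters 0 and 1 of library 1 (right): histograms of all genes with at least 50 UMIs, with values beyond 4 gathered in the outermost bins, above the 8 genes with 95% counting intervals. The dashed line is the median of all genes; P2ry12 and P2ry13 lie near -1.90 and -1.77 on the left and P2rx4 lies to the right of 0 on both sides.

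Counted per cell at equal depth, the shares of cells with a UMI had intervals that did not overlap between the libraries for P2ry12, P2ry13 and no other member. Each cell was thinned to 2000 UMIs, which left out 68 cells of library 1 and 6 of library 2 and kept 1016 and 57. P2ry12 had a UMI in 99.3% (98.6 to 99.7) and 89.5% (78.5 to 96) of cells, with medians of 10 UMIs (quartiles 7 and 14) and 2 UMIs (quartiles 1 and 4). P2ry13 was found in 81.8% (79.3 to 84.1) and 35.1% (22.9 to 48.9), so most cells of library 2 had none at this depth. Without thinning the P2ry13 shares were 93.6% and 60.3%. Gpr34 was found in 96.9% (95.7 to 97.9) and 91.2% (80.7 to 97.1) of cells, with medians of 5 and 3 UMIs. P2rx4 was found in 21.9% (19.4 to 24.6) and 36.8% (24.4 to 50.7), with intervals that overlap slightly, and P2ry6 in 52.7% and 52.6%. For Adora3 the shares were 29.3% (26.5 to 32.2) and 21.1% (11.4 to 33.9), for P2rx7 11.7% (9.8 to 13.9) and 5.26% (1.1 to 14.6), and for Entpd1 40.4% (37.3 to 43.4) and 24.6% (14.1 to 37.8). As a level for free RNA, the thinned NK-like cells of library 2 had a P2ry12 UMI in 1 of 67 cells and 0 for P2ry13, P2ry6 and Adora3, at a median depth of 3318 UMIs before thinning, against 4035 UMIs in the microglia-like cells. Gpr34 was found in 10 of those 67 cells, or 14.9% (7.4 to 25.7).

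Single microglia-like cells carried several of the receptors together. At 2000 UMIs, 322 of 1016 cells of library 1 had UMIs of 4 of the 8 genes, 309 had 5 and 7 had all 8. In library 2 the largest number, 15 of 57 cells, had 5, and no cell had 7 or 8. In each library 1 cell had none.

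**Figure D3:**
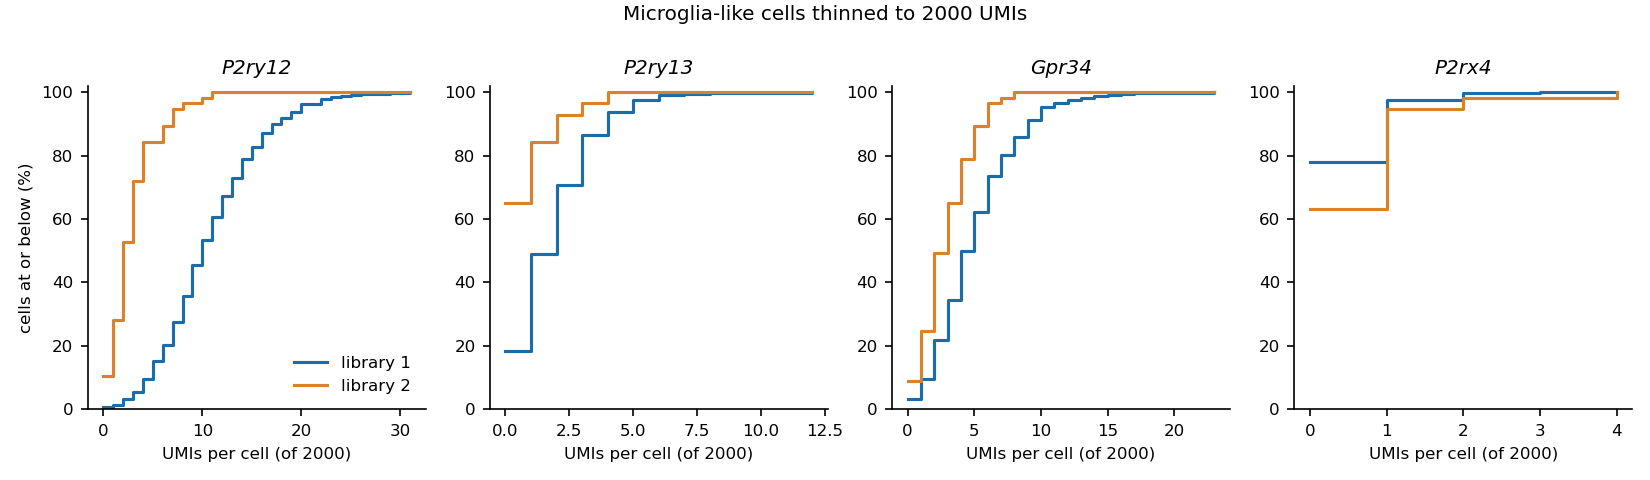
Cumulative share of microglia-like cells (%) by UMIs per cell after thinning to 2000 UMIs, for P2ry12, P2ry13, Gpr34 and P2rx4 in library 1 (1016 cells) and library 2 (57 cells). The line of library 2 lies to the left of library 1, meaning fewer UMIs per cell, for P2ry12 (medians 2 and 10), P2ry13 and Gpr34, and starts lower for P2rx4.

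Within library 1 the microglia-like cells formed 3 clusters, and the 8 genes were not level across them. Cluster 2 was richest in immediate early and cytokine genes, a list of 12 that includes Fos, Tnf and Il1a, with 26269 CPM summed over the list against 10225 CPM in cluster 0 and 3183 CPM in cluster 1. Genes of this list rise within minutes of stimulation, dissociation of tissue included. Cluster 2 also had deeper cells, with a median of 5990 UMIs against 3490 and 2831, and the part of depth or of dissociation in what follows was not tested. The clusters were formed from these same cells, so the values are a description.

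P2ry12 had 5089, 6006 and 3747 CPM in clusters 0, 1 and 2 of library 1, and Gpr34 had 2456, 2828 and 1830 CPM. P2ry13 had 847, 1012 and 540 CPM and Adora3 171, 207 and 100 CPM in the same order, and P2ry6 had 400, 450 and 348 CPM. For these 5 genes cluster 2 was lowest and cluster 1 highest. Against clusters 0 and 1 together, cluster 2 differed by -0.51 (-0.55 to -0.46) for P2ry12, -0.72 (-0.84 to -0.60) for P2ry13, -0.48 (-0.55 to -0.41) for Gpr34 and -0.84 (-1.13 to -0.56) for Adora3 on the log2 scale, where the median of 7100 genes was -0.11. P2ry6 differed by -0.25 (-0.40 to -0.09). P2rx4, at 0.31 (0.04 to 0.57), and P2rx7, at 0.25 (-0.11 to 0.60), were higher in cluster 2, the second with an interval that holds 0, and Entpd1 stood at 258 and 256 CPM. None of the 8 genes was lower by at least 2-fold, against 1.27% of all genes, and P2ry13 and Adora3 were lower by at least 1.5-fold, against 7.99%. Among genes with at least 500 UMIs, as both of these have here, 0.736% were lower by at least 1.5-fold. Of the 12 immediate early and cytokine genes, 11 were higher by at least 2-fold, against 1.62% of all genes, and this list was used to pick the cluster.

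**Figure D4:**
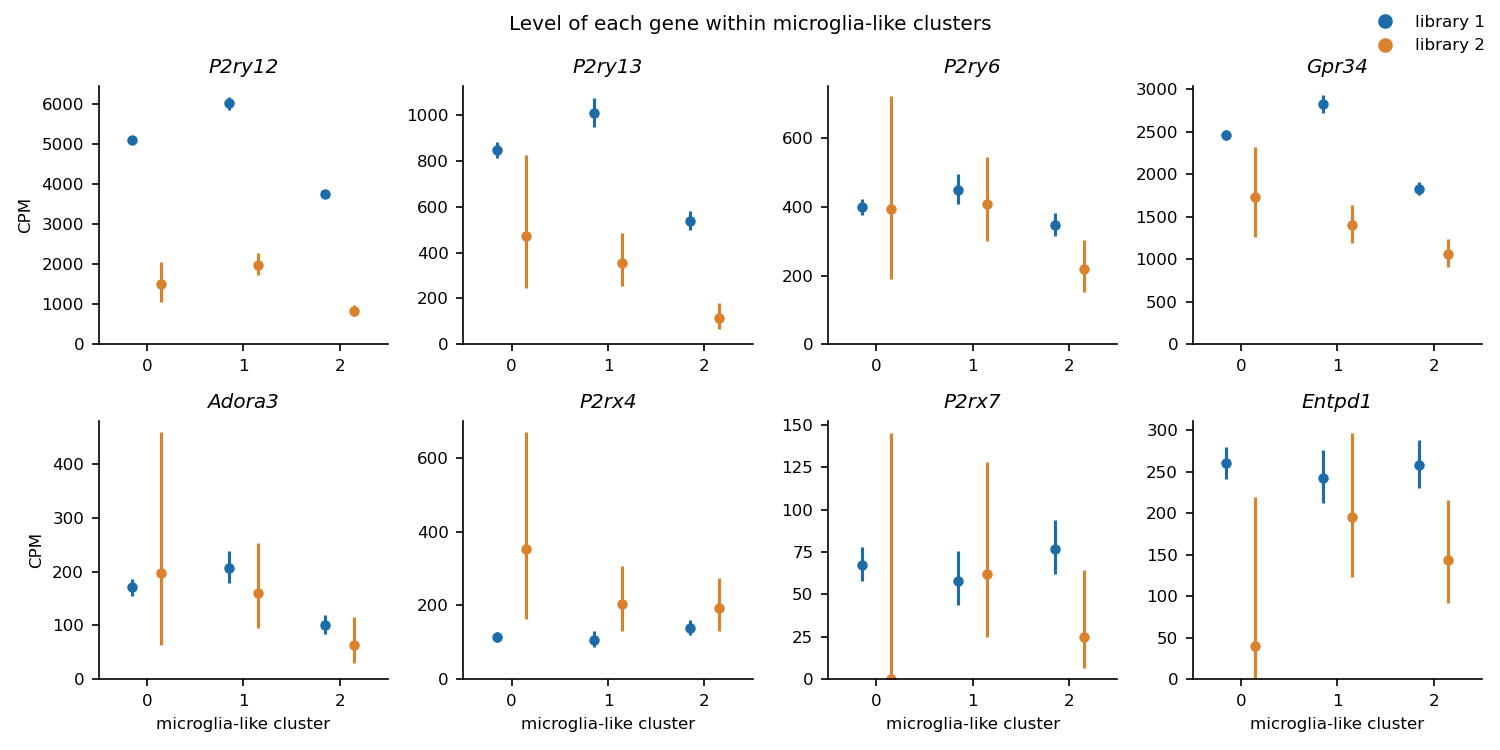
CPM of each gene in microglia-like clusters 0, 1 and 2 of libraries 1 and 2, with 95% Poisson intervals; cluster 0 has 7 cells in library 2. P2ry12 is highest in cluster 1 (6006 and 1985 CPM) and lowest in cluster 2 (3747 and 833 CPM) in both libraries, whereas P2rx4 of library 2 lies above library 1 in each cluster.

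The clusters named microglia held 2 cells of library 3, but cells named one by one gave 26. These 26 cells, 23 of them in the cycling monocyte-like cluster, had a median of 19378 UMIs. P2ry12 stood at 200 CPM (164 to 242) in them, Gpr34 at 304 CPM (259 to 354), P2ry6 at 168 CPM (135 to 206), P2rx4 at 77.3 CPM (55.5 to 105) and P2ry13 at 58.5 CPM (39.7 to 83). Their P2ry12 level was below that of the microglia-like cells of libraries 1 and 2, and the share of the cycling monocyte-like cluster's own transcripts in it was not tested.

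Across the 16 combinations of class and library with at least 20 cells, the patterns of the 8 genes were compared by Pearson correlation of log2(CPM + 1), as a description over points that share libraries and depth. P2ry12 was most like Adora3 among the 8, at 0.96, and P2ry13 was like Adora3 at 0.93. P2rx4 was least like Entpd1 and Gpr34, at 0.35 and 0.38. Over 9422 genes, P2ry12 was most like Siglech, a microglial lectin that was among the naming markers, at 0.985, followed by Tanc2 and Kcnk12. P2ry13 was nearest to Ppp1r9a, Slc2a5 and Sall1, of which the last pair were naming markers. P2ry6 was nearest to Ly86, Zeb2os and Adgre1, the last encoding the macrophage protein F4/80, and Gpr34 to Vegfb, Golm1 and Maf. P2rx4 was nearest to the costimulatory gene Cd86, at 0.944, then Lgmn and Lpcat1, and P2rx7 to Tmem245, Dtx4 and Mfsd12. Adora3 was nearest to Siglecf, Etv5 and Pecr, and Entpd1 to Naglu, Vav1 and Nav2. With units of at least 10 cells, none of the 3 genes nearest to Adora3 recurred, while all 3 did for P2ry12 and P2rx4 and 2 of 3 for the other 5.

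Other genes of the same pathways showed where the rest of the nucleotide receptors were. Of the related P2Y-like receptors, Gpr183 and Lpar6 were the ones with 50 UMIs in microglia-like cells. Gpr183, an oxysterol receptor, had 279 and 148 CPM in libraries 1 and 2, and Lpar6, a lysophosphatidic acid receptor, had 221 and 111 CPM. Gpr171, of the same chromosome 3 block as P2ry12, was highest in NK-like cells of library 2, at 256 CPM (198 to 325). It had 701 UMIs in all cells and 1 UMI in the 1084 microglia-like cells of library 1. Its levels in the other classes are not listed here. P2ry10, a second lysophosphatidylserine receptor, reached 72.3 CPM (31.2 to 143) in NK-like cells of library 3. P2ry14, the UDP-sugar receptor of the block, did not exceed 16.9 CPM in any class. Among the adenosine receptors, Adora2a was highest in mature-dendritic-like cells, at 164 CPM (128 to 208), and Adora2b in dendritic-like cells of library 3, at 36.9 CPM (21.9 to 58.4). No P2X gene besides the 2 described had 50 UMIs in all cells, P2rx1 having the most with 45.

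**Figure D5:**
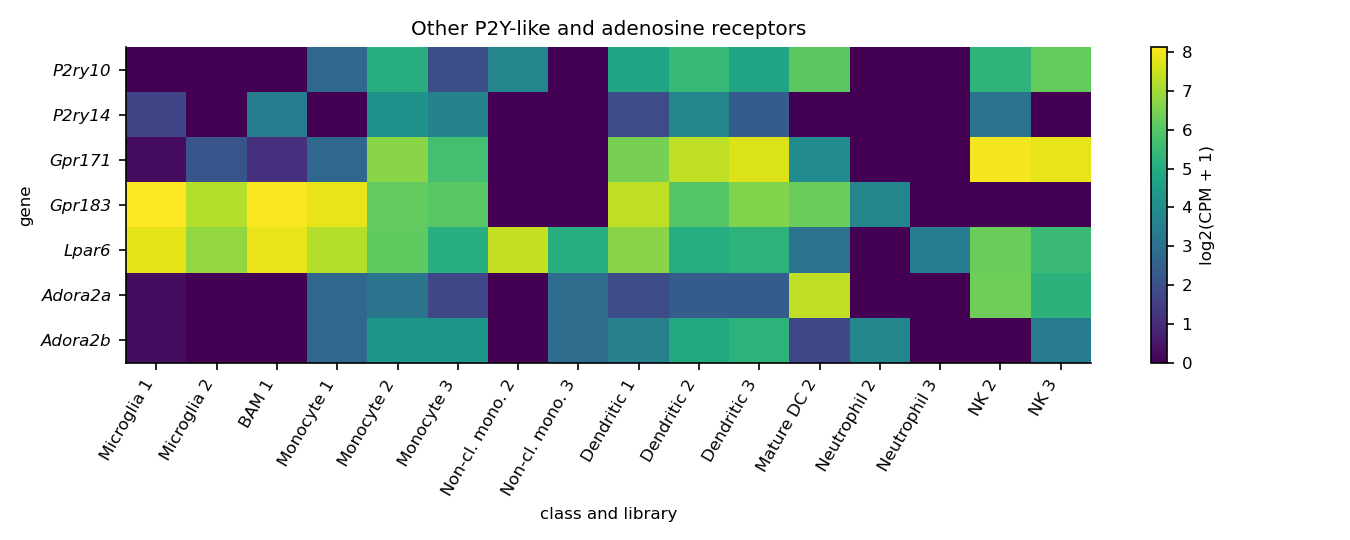
Heat map of log2(CPM + 1) for the other P2Y-like and adenosine receptors with at least 50 UMIs (rows) in each class and library of at least 20 cells (columns, numbered by library). Gpr183 and Lpar6 are bright in the microglia-like columns, and Gpr171 (256 CPM) is brightest in NK-like cells of library 2.

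The remaining lists were counted between microglia-like cells of libraries 1 and 2, among genes with 50 UMIs, against the same 20.2% lower and 2.42% higher by at least 2-fold. Genes past 2-fold are named here after their values were seen, beside the 3 highest genes of each list. Of 5 genes of nucleotide hydrolysis and adenosine handling, 1 was lower: Pnp, which breaks down purine nucleosides, at 180 and 84.1 CPM. The nucleoside transporters Slc29a3 and Slc29a1 had 211 and 161 CPM and 151 and 77.3 CPM. Of 3 genes of ATP release, 1 counts among those past 2-fold only because it had 0 UMIs in library 2. It is the vesicular nucleotide transporter Slc17a9, with 55 UMIs (11.2 CPM) in library 1, and since 3 counts would be 10.1 CPM in library 2, a difference was not detectable at this depth. Calhm2 had 63.2 and 67.2 CPM, Panx1 had 34 and 0 UMIs, and Gja1 had 0 in both.

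Downstream of the receptors, 5 of 18 genes of Gi and Gq signalling were lower. Itpr2, the calcium channel opened by inositol trisphosphate, had 108 and 30.3 CPM, Gnb1 90.0 and 40.3 CPM and Pik3cg 45.0 and 16.8 CPM, while Pik3r5 and Gng10 had 2 and 3 UMIs in library 2. The intervals of these last log2 differences, -1.73 (-4.79 to 0.16) for Pik3r5 and -1.03 (-3.34 to 0.55) for Gng10, include 0. The regulators Rgs10 and Rgs1 had 1718 and 1436 CPM and 712 and 636 CPM, and Gng5 485 and 612 CPM. Of 7 genes of the inflammasome downstream of P2X7, 1 was higher, the cytokine gene Il1b, at 92.4 and 985 CPM, while the adaptor gene Pycard had 444 and 454 CPM and Gsdmd, which encodes a pore-forming protein, 91.4 and 47.1 CPM. Il1b was highest in neutrophil-like cells of library 2, at 3497 CPM, and neutrophil markers were the higher in the microglia-like cells of library 2 (above). Those markers summed to 730 CPM there and to 389038 CPM in the neutrophil-like cells of library 2. Within library 1, Il1b had 12.0 CPM in microglia-like clusters 0 and 1 together and 330 CPM in cluster 2. The part of neutrophil RNA in the Il1b difference was not tested. Of the genes of lysophosphatidylserine metabolism, Abhd12 had 890 and 555 CPM and Abhd16a 76.3 and 70.6 CPM, neither past 2-fold. Pla1a had 8 UMIs and 1. Of 12 immediate early and cytokine genes, 4 were higher: Fos, Dusp1, Nfkbiz and Il1a. The highest of the list, Ccl4, Ccl3 and Junb, had 3148 and 5091, 1907 and 3611, and 3198 and 2616 CPM.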

How the data were processed

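Single-cell RNA of Cd11b-sorted brain cells was deposited as 1 matrix of counts (UMIs per gene and cell); the authors used Cell Ranger 2.0.1 and mm10, per the submitters' processing notes, and the file headers state whole-number counts. Its annotation and cell filter are not given in the sources used here. From the deposited counts, cells with at least 500 genes and at most 10% mitochondrial counts were kept, and 9 of 2144 cells (0.42%, a low yield) marked by Scrublet in scanpy 1.11.5 at an expected 5% were removed, so doublets may remain. The 2000 most variable genes without the 8 members, 30 principal components, 15 neighbours and Leiden resolution 0.5 (igraph 0.11.9) gave 12 clusters.

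A marker counted when at least 0.3 of the cells of a cluster had it and its CPM reached 2 times the median of all clusters; naming took 3, and the most markers among the 10 leading genes (detected in at least 0.3 of cells) decided. This scoring was settled after the clusters were seen, and 12 cells stayed unnamed. The cluster named border-associated-macrophage-like also passed for all 10 microglia markers. The monocyte-like class joins a cluster led by Ifitm1, Hdc and interferon genes, with 1 leading monocyte and 1 leading neutrophil marker, and a cycling one.

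Levels are UMIs summed over cells per 1000000, in classes of at least 20 cells. Ratios were computed for genes with at least 50 UMIs. In simulated Poisson counts, 96.5% of ratio intervals held the true ratio, and 6.09% of unchanged genes were called lower by at least 2-fold. The simulation held no variation between cells, so it does not test for that. The members and lists were chosen with earlier results of these data known. Named genes were the 8 members, the 3 genes most like each in pattern, the 3 with the highest level in each pathway list and, in the receptor lists, each with 50 UMIs. Trbc1, Trbc2 and P2ry10b were not analysed here. Gene positions are from GENCODE M21 on GRCm38.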

Additional observations from a re-analysis of the deposited data

How the results depend on the processing

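Of 33 recomputed counts of members, 29 stayed within 1.5 times the reported one and 4 moved. The 2 members lower by at least 2-fold in microglia-like cells of library 2 became 4 at no more than 5% mitochondrial counts and 5 at a fold of 1.5. The 0 members lower in cluster 2 became 2 at a fold of 1.5 and 1 with cells thinned to 2000 UMIs. The 6 members highest in microglia-like cells became 8 with cells named one by one and 8 without library 1; under both, the border-associated-macrophage-like class has fewer than 20 cells and leaves the comparison, so these counts say nothing of P2rx4 and P2rx7. Without the cells rich in microglia markers outside microglia-like clusters the count was 6. Of the other recomputed values, mainly levels, ratios and shares of cells, 291 stayed within their set limits, 119 moved and 4 turned in sign. The sign turned for P2rx7 between libraries within cluster 1, to 0.10, and for Entpd1 in cluster 2 with the members kept in clustering (-0.0021), at 5% mitochondrial counts (-0.023) and with means of per-cell CPM (-0.038), values near 0. Over 11 alternatives the log2 difference between libraries ran from -2.17 to -1.51 for P2ry12, from -2.26 to -1.36 for P2ry13, from -1.13 to -0.75 for Gpr34 and from 0.48 to 0.94 for P2rx4. The share of all genes lower by 2-fold ran from 9.02% to 26.6%. The causes were not tested. No paired analysis was possible because each labelled group is 1 library and the barcodes carry no replicate number. Depth limits P2rx7 most, with 11 UMIs in microglia-like cells of library 2, and 63 cells there limit every ratio. The within-cluster, thinning and 500-UMI alternatives were chosen after seeing the data.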
